A study of Mus musculus with 9 samples.

Results

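A set of 9 genes of the mesenchymal cytoskeleton and extracellular matrix were followed in sorted tumor cells of mouse pancreatic ductal adenocarcinoma (PDAC): the filament genes Vim and Nes, the fibre genes Fn1 and Fbn1, the matricellular genes Sparc, Tnc and Postn, and the crosslinking enzymes Lox and Loxl2. They were picked by name, as genes commonly read as mesenchymal, at a time when earlier results of these data were known. All 9 of 9 were found among the 47643 genes of the count files, and all 9 were among the 14105 genes with enough reads to be tested.

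The study asked how pancreatic tumors grow back after loss of the transcriptional coactivator Yap. RNA was taken from GFP+Yap+ cells of KPF mice (6 libraries of 5 mice, since mouse 4504 gave the libraries 4504h and 4504s) and from Tm+Yap- cells of KPYYF mice (3 libraries of 3 mice). Tumor cells of both genotypes carried 1 Trp53 frt allele, recombined by Pdx-Flp in the pancreas, together with the R26 FSF-CreER/Dual reporter, which marks recombined cells with GFP and switches to tdTomato (Tm) when tamoxifen activates CreER. KPYYF mice additionally carried 2 floxed Yap alleles, which the same tamoxifen step deletes. By the study's account, the KPF and the KPYYF mice were both treated with tamoxifen, and the Tm+Yap- cells came from relapsed nodules. Genotype, Yap loss, reporter color and relapse thus cannot be told apart in this comparison. The ages of the mice are not given in the labels, and the sequenced cells had been sorted from digested tumors on the reporter color.

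Vimentin and nestin are intermediate filament proteins, which form part of the cytoskeleton of mesenchymal and progenitor cells. Fibronectin and fibrillin are assembled outside the cell into fibres on which collagen and elastin are laid down, matricellular proteins bind these fibres and cell surface receptors without being the main load-bearing material, and lysyl oxidases crosslink collagen and elastin. In PDAC most of the matrix is usually attributed to cancer-associated fibroblasts, while carcinoma cells that have undergone epithelial to mesenchymal transition (EMT) can express the same genes.

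The libraries had 8116539 to 9635514 reads on genes. Yap1 averaged 99.0 ± 41.7 CPM (read counts scaled to sequencing depth; SD, n = 6) in KPF and 3.55 ± 3.26 CPM (n = 3) in KPYYF libraries, without overlap, in the direction of the labels (log2 fold change -4.79, SE 0.73, Benjamini-Hochberg adjusted p = 0.0159 in edgeR's quasi-likelihood test). All levels are CPM on TMM-normalized library sizes, and fold changes are KPYYF relative to KPF on the log2 scale. Because the libraries read the 3′ ends of transcripts, levels were compared between libraries and not between genes. Library 4504s and library 4449 held the most reads of acinar markers (15240 and 4386 summed CPM, against 51.5 to 706 in the others), and library 4601 the most of immune markers (8268 summed CPM, 423 to 2533 in the others).

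Postn, which encodes the matricellular protein periostin, was the 1 gene of the 9 whose levels did not overlap between the groups, and it was lower in Tm+Yap- cells. The other 8 genes overlapped between the groups, with fitted changes between -1.20 for Sparc and 0.93 for Tnc, and none of these 8 had an unadjusted p under 0.05. No member passed an adjusted p of 0.05, either as higher (0 of 9, where 0.305% of all genes tested were called higher) or as lower (0 of 9, where 0.794% were called lower). With the cutoff of the study's methods (p below 0.05 and more than 2-fold), applied here to unadjusted p values of edgeR's quasi-likelihood test, 1 of 9 was lower (Postn, against 9.20% of all genes) and 0 of 9 were higher (against 4.20%). The fitted change was positive for 6 and negative for 3 members, with a median of 0.35, beside a median of -0.07 over all 14105 genes. The KPYYF libraries all lay below the KPF libraries for 1 of 9 members (5.18% of all genes) and all above them for 0 of 9 (3.92% of all genes).

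**Figure D1:**
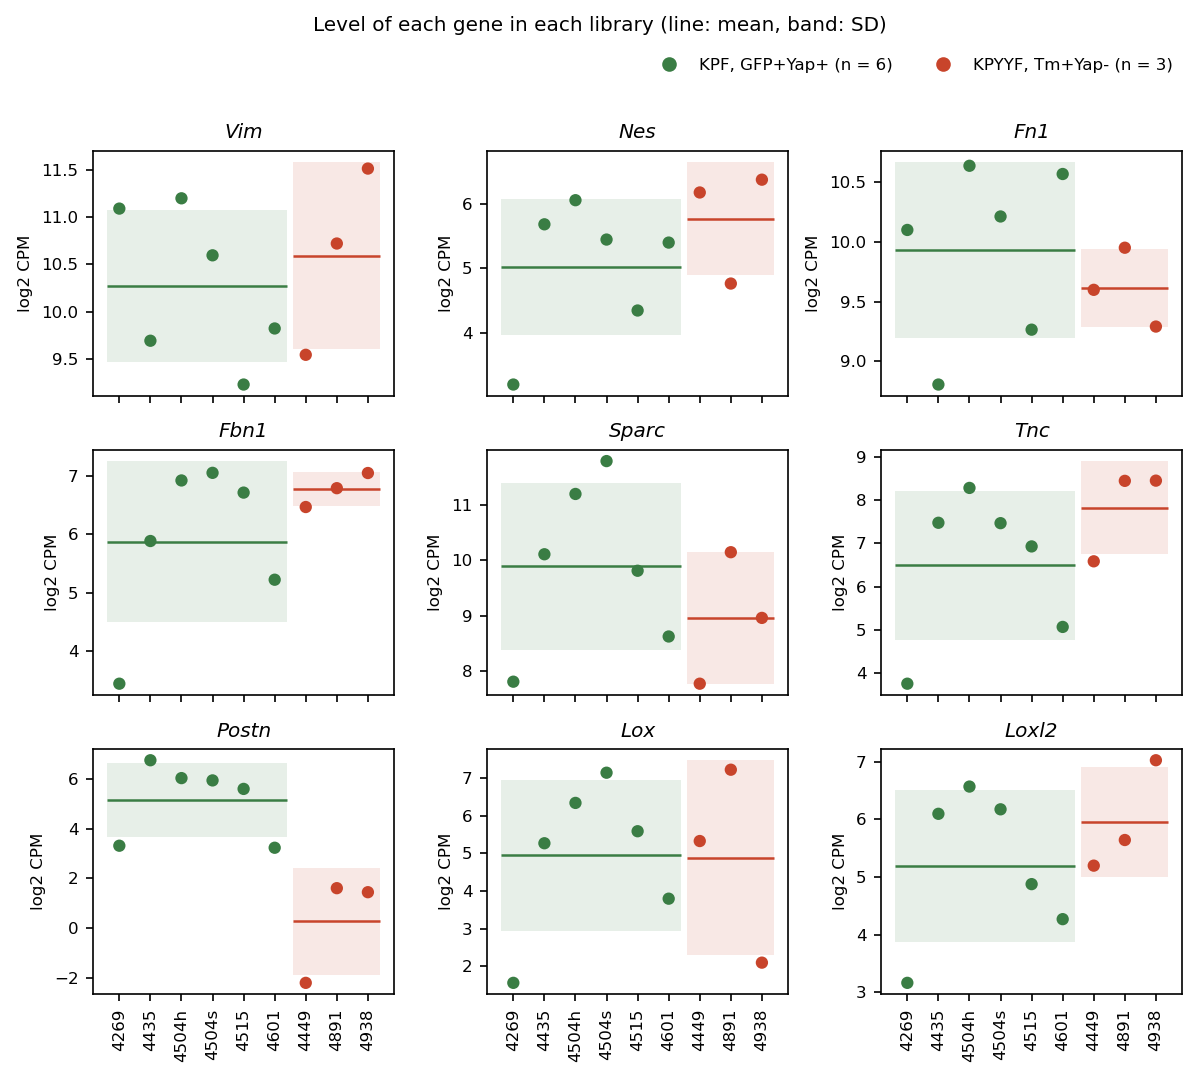
Level of each of the 9 genes in each library, as log2 CPM with a prior count of 2; points are single libraries (green, 6 KPF; red, 3 KPYYF), lines the group means and bands 1 SD. The red points lie below all green points in the panel of Postn and among or beside them in the other 8 panels.

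Among the filament genes, Vim was high in libraries of both groups. Vim, which encodes vimentin (chromosome 2, 13573927 to 13582826, + strand, GRCm38), had 599 CPM in the lowest KPF library (4515), a median of 1226 CPM and 2352 CPM in the highest (4504h). In the KPYYF libraries it had 745 CPM (4449), 1688 CPM (4891) and 2927 CPM (4938). The highest value of all 9 libraries was thus in a KPYYF library, but another KPYYF library lay below 5 of the 6 KPF libraries. The group means were 1401 ± 742 and 1787 ± 1094 CPM (SD, n = 6 and 3), and the fitted change was 0.35 (SE 0.49, 95% interval -0.72 to 1.42; edgeR quasi-likelihood adjusted p = 0.794). Without library 4938 the fitted change of Vim turned to -0.20.

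Nes encodes nestin, the filament protein of neural and other progenitor cells (chromosome 3, 87971078 to 87980451, + strand). It had 8.93 CPM in the lowest KPF library (4269), a median of 42.7 CPM and 66.5 CPM in the highest (4504h). The KPYYF libraries had 72.2 CPM (4449), 26.9 CPM (4891) and 83.0 CPM (4938). Thus 2 of the 3 KPYYF libraries lay above the whole KPF range and the third within its lower part. Nes had a fitted change of 0.65 (SE 0.54, 95% interval -0.51 to 1.81; edgeR quasi-likelihood adjusted p = 0.607).

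The list of intermediate filament genes of mesenchymal, muscle, neural and glial cells held 10 genes, of which 6 were tested and 0 were called in either direction (median change 0.50). Gfap, the glial filament gene, had no read in any library. Nefl, the light neurofilament gene, had the highest fitted change (2.00, adjusted p = 0.667 by edgeR's quasi-likelihood test). It had 10.7 and 6.34 CPM in KPYYF libraries 4891 and 4938, 0 reads in 4449, and 0 to 5.10 CPM in KPF libraries. Synm, which encodes synemin, had the lowest (-3.27, adjusted p = 0.434 in the same test), with 0 to 1.09 CPM in KPYYF and 0.102 to 12.1 CPM in KPF libraries. Des, the muscle filament gene desmin, reached 82.0 CPM in library 4504s and 57.6 CPM in library 4938.

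For the fibre-forming genes Fn1 and Fbn1, no KPYYF library left the range of the KPF libraries. Fn1, which encodes fibronectin (chromosome 1, 71585520 to 71653200, - strand), had 447 CPM in the lowest KPF library (4435), a median of 1143 CPM and 1595 CPM in the highest (4504h). KPYYF libraries had 775 CPM (4449), 990 CPM (4891) and 626 CPM (4938), all 3 within the KPF range. The means were 1077 ± 466 and 797 ± 183 CPM (SD, n = 6 and 3), and the fitted change was -0.43 (SE 0.38, 95% interval -1.26 to 0.39; edgeR quasi-likelihood adjusted p = 0.638).

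Fbn1 encodes fibrillin, the backbone of microfibrils (chromosome 2, 125300594 to 125507993, - strand). It had 10.6 CPM in the lowest KPF library (4269), a median of 82.1 CPM and 133 CPM in the highest (4504s), a 12.6-fold range. The KPYYF libraries had 88.6 CPM (4449), 111 CPM (4891) and 133 CPM (4938), a 1.5-fold range. All 3 KPYYF libraries were in the upper part of the KPF range, above the level of 3 KPF libraries and below that of 4504s. For Fbn1 the fit gave a change of 0.51 (SE 0.59, 95% interval -0.78 to 1.80; edgeR quasi-likelihood adjusted p = 0.739).

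Of the 19 genes listed for fibronectin, microfibrils and elastic fibres, all 19 were tested and 1 was called higher and 0 lower (median change 0.18). This was Efemp1, which encodes the extracellular matrix glycoprotein fibulin-3. Efemp1 had 8.05 to 37.6 CPM in the 6 KPF libraries and 78.5, 94.9 and 62.9 CPM in KPYYF libraries 4449, 4891 and 4938, so every KPYYF library lay above every KPF library. Its fitted change was 2.06 (SE 0.43), with an adjusted p of 0.0407 by edgeR's quasi-likelihood test, and it was called in 8 of 20 alternative analyses (adjusted p 0.00141 to 0.136 over the 20). With the libraries of mouse 4504 summed, so that each mouse counted once, it was not called (change 1.99, edgeR adjusted p = 0.0562). The call was lost without any 1 of the libraries 4435, 4504h, 4504s, 4515, 4601, 4449, 4891 and 4938, while the change stayed between 1.90 and 2.20.

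The highest fitted change on that list was that of Fbln5, which encodes fibulin-5, a protein of elastic fibre assembly (2.18, adjusted p = 0.340 by edgeR). It rested mainly on 39.4 CPM in library 4891, beside 3.55 and 7.76 CPM in the other 2 KPYYF libraries and 0 to 5.72 CPM in KPF. Mfap5, the microfibril-associated glycoprotein that is also on the fibroblast marker list, had the lowest (-3.42, adjusted p = 0.278 by edgeR), with 0.592 to 11.7 CPM in KPYYF and 0.582 to 95.2 CPM in KPF libraries. By the cutoff of the study's methods (unadjusted p below 0.05 and more than 2-fold), 1 gene of the list, Efemp1, was higher, against 4.20% of all genes. Lower by it were 4 genes (against 9.20%): Mfap5, Ltbp3, Ltbp4 and Fbln2, the last 3 named after their values were seen. Ltbp3, a latent TGF-beta binding protein, was the only one of these 4 whose groups did not overlap (211 to 315 CPM in KPF, 72.1 to 141 CPM in KPYYF; change -1.08, adjusted p = 0.0933 by edgeR).

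Both crosslinking enzymes varied more within each group than between the groups. Lox, which encodes lysyl oxidase (chromosome 18, 52516067 to 52529867, - strand), had 2.72 CPM in the lowest KPF library (4269), a median of 43.2 CPM and 142 CPM in the highest (4504s), a 52.2-fold range. The KPYYF libraries had 40.0 CPM (4449), 150 CPM (4891) and 4.04 CPM (4938), a 37.1-fold range. Both groups thus reached from single-digit values to well over 100 CPM. The fitted change was 0.25 (SE 1.13, 95% interval -2.29 to 2.80; edgeR quasi-likelihood adjusted p = 0.950), and it was -1.30 without library 4891.

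Loxl2 encodes a lysyl oxidase homolog (chromosome 14, 69609068 to 69695834, + strand). In KPF it had 8.73 CPM at the lowest (4269), a median of 48.7 CPM and 94.8 CPM at the highest (4504h). In KPYYF it had 36.5 CPM (4449), 49.7 CPM (4891) and 130 CPM (4938). Library 4938, with little Lox, held the highest Loxl2 level of all 9, and library 4891, with the highest Lox level, was near the KPF median for Loxl2. The fitted change was 0.57 (SE 0.67, 95% interval -0.89 to 2.02; edgeR quasi-likelihood adjusted p = 0.743), and without library 4938 it was -0.18.

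All 5 genes of the lysyl oxidase family were tested, and 0 were called in either direction (median change 0.11). Loxl2 had the highest fitted change of the family and Loxl1 the lowest (-1.36, adjusted p = 0.447 by edgeR), with 11.3 to 84.6 CPM in KPF and 3.91 to 37.7 CPM in KPYYF libraries.

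**Figure D2:**
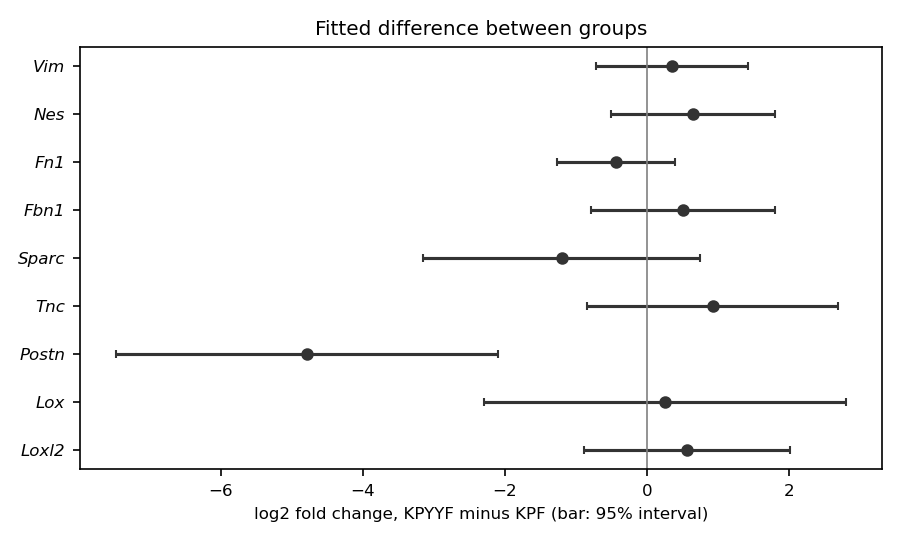
Fitted log2 fold change of each gene, KPYYF minus KPF, with a 95% interval derived from the F statistic of edgeR's quasi-likelihood test (6 KPF and 3 KPYYF libraries). The intervals thus restate the unadjusted p values. The grey line marks no change. The interval of Postn, -7.47 to -2.10, is the only one of the 9 that does not include 0.

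The 3 matricellular genes did not move together. Sparc encodes osteonectin, a collagen-binding glycoprotein (chromosome 11, 55394500 to 55423183, - strand). It had 224 CPM in the lowest KPF library (4269), a median of 998 CPM and 3521 CPM in the highest (4504s). The KPYYF libraries had 218 CPM (4449), 1129 CPM (4891) and 497 CPM (4938). The 2 lowest libraries, 4449 and 4269, were of different groups, and 2 of the 3 KPYYF libraries lay within the KPF range. Sparc had a fitted change of -1.20 (SE 0.87, 95% interval -3.15 to 0.75; edgeR quasi-likelihood adjusted p = 0.559). It was -0.66 without library 4504s, -1.98 without library 4891, and -0.29 when the acinar-rich libraries 4504s and 4449 were both left out.

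Tnc encodes tenascin C, which is laid down in wounds, tumors and developing tissue (chromosome 4, 63959785 to 64047015, - strand). It had 13.3 CPM in the lowest KPF library (4269), a median of 149 CPM and 310 CPM in the highest (4504h). The KPYYF libraries had 95.6 CPM (4449), 347 CPM (4891) and 348 CPM (4938). Libraries 4891 and 4938 lay above the whole KPF range, and 4449 below 4 of the 6 KPF libraries. The fit gave Tnc a change of 0.93 (SE 0.79, 95% interval -0.84 to 2.70; edgeR quasi-likelihood adjusted p = 0.630).

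Postn, the gene of periostin, an integrin-binding protein of collagen-rich and injured tissue (chromosome 3, 54361109 to 54391037, + strand), was near absent from Tm+Yap- cells. The KPF libraries held 100 reads (4269), 1038 reads (4435), 633 reads (4504h), 533 reads (4504s), 433 reads (4515) and 63 reads (4601). The KPYYF libraries held 0 reads (4449), 26 reads (4891) and 23 reads (4938). Each KPYYF library was below each KPF library, and the lowest KPF libraries, 4269 and 4601, stood well below the other 4. In CPM, the KPF libraries ranged from 9.16 to 106 with a mean of 49.6 ± 36.8 (SD, n = 6), and the KPYYF libraries from 0 to 2.84 with a mean of 1.78 ± 1.55 (n = 3); 0 reads in library 4449 allow up to 0.355 CPM by counting error alone.

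The fitted change of Postn was -4.78 (SE 1.22, 95% interval -7.47 to -2.10), or 27.5-fold. Its p was 0.00244 unadjusted and 0.0933 after Benjamini-Hochberg adjustment over all genes in edgeR's quasi-likelihood test, so that the difference did not pass the threshold. A two-sided exact permutation test of its log2 CPM, with 84 ways to label the libraries, gave p = 0.0119, the smallest p that 84 labelings allow. These labelings count libraries 4504h and 4504s of 1 mouse as separate samples, and this p is not adjusted for the 9 members. DESeq2's Wald test called the gene (adjusted p = 7.67e-06, change -4.78). Over 20 alternatives the change stayed between -5.39 and -4.14 and the adjusted p ranged from 7.67e-06 to 0.344. With the libraries of mouse 4504 summed it was -4.70 (edgeR adjusted p = 0.128). Among the libraries with at least 1000 reads of Xist, 3 of each group, it was -5.39 (edgeR adjusted p = 0.103). The KPF libraries of this subset were 4435, 4504h and 4504s, so mouse 4504 was counted more than once. Xist was unbalanced between the groups. The KPYYF libraries held 3452 to 16108 Xist reads, while KPF libraries 4269, 4515 and 4601 held 79, 71 and 159.

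The promoter window of Postn is shown because it belongs to the 1 member whose groups did not overlap. That of Sparc is shown because, of the windows searched, it alone had the Zeb and Snai form of the E-box. Both are taken from RefSeq (build GRCm38.p6), from 250 bases before the start site to 50 bases after it, 5′ to 3′ on the gene's strand. In capitals stand TATAAA, the TATA box letters, and CACCTG or its reverse complement, the E-box form bound by Zeb and Snai factors.
Postn, chr3:54360857-54361156 (+): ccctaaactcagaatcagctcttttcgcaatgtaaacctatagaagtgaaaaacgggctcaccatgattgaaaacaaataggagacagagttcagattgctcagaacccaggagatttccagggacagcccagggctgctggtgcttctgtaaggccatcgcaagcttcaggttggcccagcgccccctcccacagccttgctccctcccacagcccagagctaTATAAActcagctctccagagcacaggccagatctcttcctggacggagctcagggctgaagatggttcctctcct
Sparc, chr11:55420031-55420330 (-): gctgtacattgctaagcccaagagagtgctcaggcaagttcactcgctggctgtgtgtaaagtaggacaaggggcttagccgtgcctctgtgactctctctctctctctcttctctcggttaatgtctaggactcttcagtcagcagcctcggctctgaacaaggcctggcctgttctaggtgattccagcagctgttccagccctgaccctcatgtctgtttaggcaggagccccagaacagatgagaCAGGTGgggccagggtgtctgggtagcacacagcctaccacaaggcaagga
TATAAA, searched on the gene's strand only and added after the sequences had been read, is in 8.32% of 32851 promoter windows. It begins 26 bases before the start site in the window of Postn shown, 32 bases before it in that of Vim, and 126 and 205 bases before it in the windows of Tnc. It is not in the second window of Postn or in those of Nes, Sparc and Fbn1. The match in Sparc begins 1 base before the start site, and CACCTG is in 20.2% of the windows. Windows were searched for Vim, Nes, Sparc, Tnc (2 windows), Postn (2 windows) and Fbn1, and none was searched for Fn1, Lox and Loxl2. On both strands, none of these 8 windows held TGANTCA, the AP-1 site (7.81% of all windows), or GGAATG, the core of the TEAD site through which Yap acts (14.7% of all windows). The general E-box CANNTG, of which CACCTG is one form, was in the windows of Sparc, Tnc and Fbn1 and in 72.3% of all windows.

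The list of matricellular genes held 23 genes, of which 20 were tested and 0 were called at the adjusted threshold (median change 0.60). By the cutoff of the study's methods (unadjusted p below 0.05 and more than 2-fold), 3 were higher (Tnr, Tnn and Thbs2), against 4.20% of all genes. Lower by it were 4 (Postn, Sparcl1, Thbs1 and Ccn2), against 9.20% of all genes. Of the genes named, only Tnr and Postn, the highest and the lowest of the list, were named by a rule. The others were named after their values were seen. Tnr, which encodes tenascin R, had the highest fitted change (6.44, adjusted p = 0.0998 by edgeR's quasi-likelihood test), and this rested on 307 reads in library 4449, since the other 8 libraries held 0 to 2 reads. Tnn, another tenascin gene, had 7.42 and 33.7 CPM in libraries 4891 and 4938 and at most 1.25 CPM elsewhere. Thbs2, the gene of thrombospondin-2, had 481 and 505 CPM in libraries 4891 and 4938 but 7 reads in library 4449, the lowest level of all 9. These 3 genes, like Tnc, were thus high in some KPYYF libraries and not in others.

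Sparcl1 and Thbs1 were nearly level across the KPYYF libraries. Sparcl1, a paralog of Sparc, had 14.7, 12.5 and 12.6 CPM in the KPYYF libraries and 19.9 to 172 CPM in KPF (change -2.63, adjusted p = 0.0851 by edgeR). Thbs1, the gene of thrombospondin-1, had 85.1 to 93.1 CPM in KPYYF and 104 to 301 CPM in KPF, again without overlap (change -1.18, adjusted p = 0.123 by edgeR). Ccn2, a matricellular gene widely used as a readout of Yap activity, had 25.6 to 102 CPM in KPYYF and 95.3 to 524 CPM in KPF (change -2.40, adjusted p = 0.119 by edgeR). Its family member Ccn1, used in the same way, stayed within the KPF range. Ccn1 had 127.5 to 225.4 CPM in KPYYF and 75.9 to 489.8 CPM in KPF (change -0.535, adjusted p = 0.695 by edgeR). Postn, Sparcl1 and Thbs1 were the 3 genes, of 20 tested on the list, whose KPYYF libraries all lay below the KPF libraries (5.18% of all genes).

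**Figure D3:**
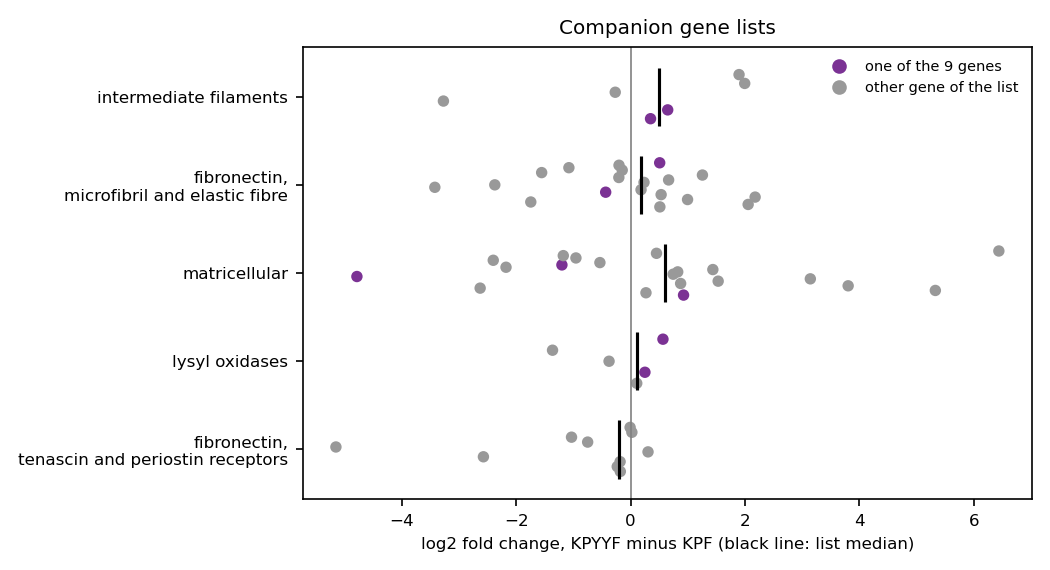
Fitted log2 fold change, KPYYF minus KPF, of every tested gene in 5 lists of related genes; purple points are members, grey points the other genes and black lines the list medians, which lie between -0.21 and 0.60. Postn is the lowest point of the matricellular list, and Tnr (6.44), Tnn and Thbs2 its highest.

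Receptors for these proteins were also read. Of 11 integrin and syndecan genes that bind fibronectin, tenascin or periostin, 10 were tested and 0 were called in either direction (median change -0.21). The highest was Itgb5 (0.31, adjusted p = 0.695 by edgeR), a partner of the alpha V integrin that binds periostin, with 67.5 to 116 CPM in KPYYF and 42.6 to 93.1 CPM in KPF. The lowest was Itgb6 (-5.15, adjusted p = 0.139 by edgeR), the epithelial partner of alpha V, with 0 to 1.42 CPM in KPYYF and 0.204 to 35.5 CPM in KPF; its 2 reads in KPF library 4504h fell within the KPYYF range.

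The 9 members were unevenly spread among the libraries. Within KPF, library 4269 was the lowest for 6 members (Nes, Sparc, Tnc, Lox, Loxl2 and Fbn1), although it was among the 3 highest for Vim. The 2 libraries of mouse 4504 were the highest for 8 members, 4504h for Vim, Nes, Fn1, Tnc and Loxl2 and 4504s for Sparc, Lox and Fbn1. Within KPYYF, library 4449 was the lowest for 6 members and the highest for 0, while 4938 was the highest for 5 and 4891 for 4. The spread of Tnc over the KPF libraries was 23.3-fold and that of Sparc 15.7-fold, against 3.93-fold for Vim and 3.57-fold for Fn1.

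**Figure D4:**
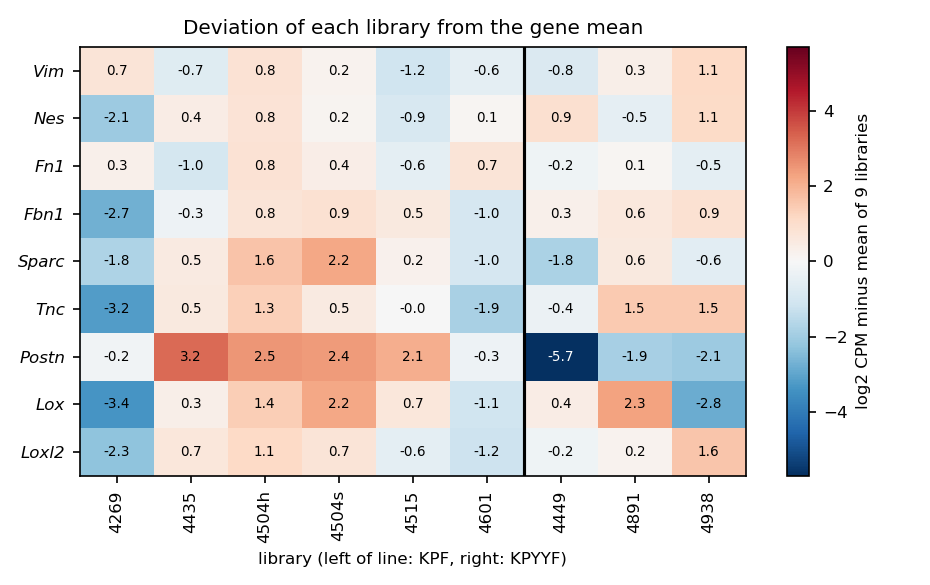
Deviation of each library from the mean of the 9 libraries, in log2 CPM (prior count 2), for each gene; columns left of the line are KPF and right of it KPYYF libraries, red is above and blue below the gene's mean. Library 4269 is blue for 7 genes, all but Vim and Fn1, and the row of Postn is blue in the 3 KPYYF columns.

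Markers of fibroblasts, the other cell type known for these genes, moved with several members among the KPF libraries. Of the 13 fibroblast markers, 12 had reads in all 9 libraries and Fap in 6, and their summed level ran from 547 to 6398 CPM in KPF and from 1224 to 3473 CPM in KPYYF libraries. Within KPF the sum rose in the order 4269, 4601, 4435, 4515, 4504h and 4504s, and Lox and Fbn1 rose in exactly this order. Sparc followed it but for libraries 4435 and 4515, which were exchanged. Nes, Tnc, Loxl2, Postn, Vim and Fn1 took other orders. Postn had 9.70, 9.16, 106, 47.8, 64.5 and 60.5 CPM in the order of the sum. Library 4269, the lowest in fibroblast markers, had 2180 CPM of Vim and 1098 CPM of Fn1. Libraries 4504h and 4504s, the highest in the sum, are of the same mouse. In library 4504s the collagen genes Col1a1, Col1a2 and Col3a1 held 1731, 1565 and 1280 CPM of the sum. Much of the sum there was thus matrix RNA, like that of the members. In bulk RNA of sorted cells, fewer cells of a type and less RNA per cell cannot be told apart, and the part of fibroblasts in these levels was not tested.

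The fibroblast markers themselves moved in both directions between the groups. Of the 13, 6 had a positive and 7 a negative fitted change (median -0.12), and none was called in either direction by edgeR at an adjusted p of 0.05. Of the defining markers, Pdgfra ran from 4.37 to 41.9 CPM in KPF and from 24.3 to 284 CPM in KPYYF, Dcn from 102 to 688 and from 71.4 to 639 CPM, and Lum from 0.582 to 48.4 and from 24.3 to 105 CPM.

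Among the markers with negative changes, named after their values were seen, Col1a1 had a change of -1.46, Col1a2 of -1.71, C3 of -2.56 and Mfap5 of -3.42. Col1a2, a chain of type I collagen whose levels were named after its values were seen, had 97.7 to 1565 CPM in KPF. It had 56.3, 564 and 49.1 CPM in KPYYF libraries 4449, 4891 and 4938. The smooth muscle and myofibroblast marker Acta2, also named after its values were seen, had 3.10 to 96.8 CPM in KPF and 5.78 to 9.51 CPM in KPYYF (change -2.65, adjusted p = 0.15 by edgeR). The summed level of the 13 markers was 1518, 3473 and 1224 CPM in KPYYF libraries 4449, 4891 and 4938, of which Col3a1 made up 908 CPM in library 4449. Postn had 0, 2.84 and 2.51 CPM in these libraries, and whether its lower level goes with fewer fibroblasts was not tested.

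**Figure D5:**
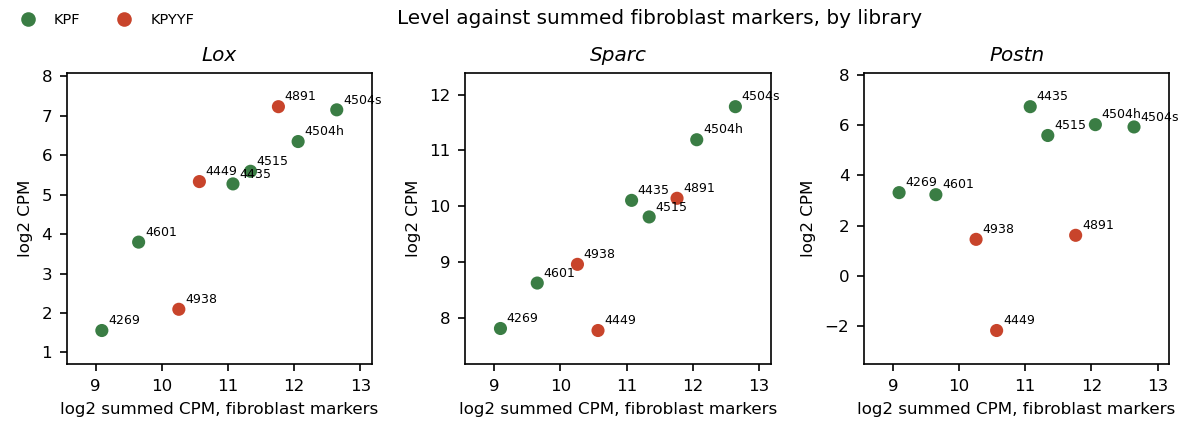
Level of Lox, Sparc and Postn in each library (log2 CPM, prior count 2) against the summed level of 13 fibroblast markers (log2 of the summed CPM); green points are KPF and red points KPYYF libraries, each with its library name. In the panel of Postn the 3 red points lie below all 6 green points, at fibroblast sums of 1224 to 3473 CPM, beside 547 to 6398 CPM in KPF.

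Other lineages were read in the same way. Of the pericyte and smooth muscle markers, Rgs5 had 19.9 to 119 CPM in KPF and 3.08 to 11.5 CPM in KPYYF without overlap, and the list summed to 34.2 to 267 and 84.1 to 236 CPM. On that list 1 of 8 tested genes was called higher, Cspg4 (6.43 to 103 CPM in KPYYF, 0.582 to 5.81 CPM in KPF; adjusted p = 0.0351 by edgeR), and 0 lower. The endothelial marker Pecam1 had 0.194 to 23.4 and 2.84 to 5.57 CPM (sums 22.3 to 105 and 24.04 to 49.95 CPM), and the pan-leukocyte marker Ptprc 50.6 to 399 and 59.1 to 103 CPM. Sox10, which defines Schwann cells, was at 0 reads in all 9 libraries, although the Schwann cell list summed to 86.4 to 253 CPM in KPF and 10.3 to 18.6 CPM in KPYYF, without overlap. S100b of that list was called lower (0.545 to 7.34 CPM in KPYYF, 15.7 to 90.6 CPM in KPF; adjusted p = 0.0357 by edgeR). The labelled tumor cell type was read from Epcam, which had 41.6 to 326 CPM in KPF and 18.5 to 134 CPM in KPYYF, and from the sum of 9 ductal epithelial markers, which was 3569 to 11920 CPM in KPF and 646 to 2141 CPM in KPYYF, without overlap. All 9 ductal markers had negative changes, and 3 were called lower by edgeR: Krt18 (-2.49, adjusted p = 0.0141), Cdh1 (-2.92, adjusted p = 0.0351) and Muc1 (-4.11, adjusted p = 0.0422). None of the endothelial, immune or acinar markers was called in either direction. The part of these lineages in the members' levels was not tested. Without the libraries richest in immune markers (4504s and 4601) the change of Postn was -4.95. Without those richest in acinar markers (4504s and 4449) it was -4.14, while that of Lox moved from 0.25 to 1.06 and that of Vim from 0.35 to 0.75. Both fits keep library 4504h of the same mouse and the group differences in ductal and Schwann cell markers, so they cannot decide the question.

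Genes with the most similar profile were sought for each member among 8863 genes with a mean of at least 10 CPM. The measure was Pearson's r of log2 CPM over the 9 libraries, which include both libraries of mouse 4504. Members and genes with predicted names were left out of the search, so a member could not be paired with another member. Postn was most like Sod3, which encodes the extracellular superoxide dismutase (r = 0.993). Sod3 had 4.07 to 29.2 CPM in KPF and 0.118, 1.31 and 1.31 CPM in KPYYF libraries 4449, 4891 and 4938, a difference that follows from its choice by likeness to Postn. Among matrix genes, Loxl2 was most like Timp1, the tissue inhibitor of metalloproteinases (r = 0.978), and Sparc was most like Loxl1 (r = 0.930).

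The other 6 members paired with genes of mixed function: Lox with Adcyap1r1 (r = 0.964), Tnc with Rgs16 (r = 0.957), Fbn1 with Dusp14 (r = 0.955), Vim with Mrpl21 (r = 0.955), Nes with Mfsd11 (r = 0.948) and Fn1 with Arid3a (r = 0.875). For the mean of the 9 members, the 3 most similar genes were P4ha1, a collagen prolyl hydroxylase subunit (r = 0.939), Cd248, the stromal surface protein endosialin (r = 0.926), and Tgfb2, a TGF-beta ligand (r = 0.924). These r values are the highest of a search over many genes and are given as a description.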

How the data were processed

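RNA was read with Lexogen QuantSeq 3′ Fwd libraries of FACS-sorted GFP+Yap+ (KPF, 6) and Tm+Yap- (KPYYF, 3) cells. Per the labels, mm10, STAR and HTSeq were named in the submitters' processing notes; their versions, the annotation and the strand setting are not given in the sources used here, and the methods section describes BeadChips and DESeq2. The deposited values are raw counts per Ensembl gene, made by the authors with no normalization; 37.3 to 42.0% of the reads in each library were on genes, and the summary lines for other reads were left out. Symbols came from GENCODE M21 (47224 of 47643 genes matched), as did coordinates.

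Testing was limited to genes whose counts summed to 100 or more over the 9 libraries, 14105 of the 22925 with a count. Counts were normalized by TMM and compared, KPYYF against KPF, with edgeR 4.0.16's quasi-likelihood test (robust, no covariate) in R 4.3.3, and p values were adjusted by Benjamini-Hochberg across these 14105 genes (threshold 0.05). The common biological coefficient of variation was 0.825. Two-sided exact permutation tests enumerated the 84 possible labelings of the libraries; the unadjusted permutation p of the 8 other members were 0.262 to 0.952. Depth, 8116539 to 9635514 reads on genes, puts 3 counts, the limit allowed by a count of 0, at 0.291 to 0.436 CPM; this covers counting error only. Alternatives were DESeq2 1.42.0, limma-voom 3.58.1 with quality weights, other scalings and filters, libraries of 1 mouse summed, libraries with at least 1000 Xist reads, and each library left out; the fitting was tested on simulated data. No paired analysis was possible because the groups hold different mice and the labels give no shared replicate numbers.

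Overlapping genes were few: antisense or overlapping genes at Fn1, Tnc and Fbn1 held 12, 12 and 27 reads in all. Libraries of a group are separate mice except 4504h and 4504s, so p values treat 1 mouse as 2 samples. The 9 members and all gene lists were chosen with earlier results of these data known. Named genes were the members, from each of 5 related lists the genes past the adjusted threshold and the highest and lowest gene, the most similar gene of each member and the 3 most similar to their mean, and 8 defining markers; any other gene, including the called markers of other cell types, was named after its values were seen. A further allele shared by both genotypes is not reported here.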

Additional observations from a re-analysis of the deposited data

How the results depend on the processing

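The members' counts at the adjusted threshold, 0 higher and 0 lower, changed only with DESeq2 (1 lower, Postn). By the cutoff of the study's methods 1 member was lower, 2 with the libraries of at least 1000 Xist reads (Postn and Sparc) and 0 with limma-voom. Directions turned for Lox (-0.42 with the Xist-selected libraries, -1.02 with limma-voom, -1.30 without KPYYF replicate 2, library 4891), Loxl2 (-0.10 with the Xist-selected libraries, -0.18 without KPYYF replicate 3, library 4938) and Vim (-0.20 without KPYYF replicate 3); the cause was not tested. With single libraries left out, the highest values were 0.84 for Lox, 0.89 for Loxl2 and 0.72 for Vim. The other 6 members kept their direction in all 20 alternatives. The members' median of 0.35 ran from -0.18 to 0.75, and was -0.10 with the Xist-selected libraries. Over all genes, 43 were called higher and 112 lower. Higher calls numbered 25 with the libraries of mouse 4504 summed, 269 with DESeq2, 11 without libraries 4504s and 4601 (added after seeing the data), 6 with the Xist-selected libraries, 88 with no filter and 6 to 75 with single libraries left out. Lower calls numbered 928 with DESeq2, 56 without 4504s and 4601, 31 with the Xist-selected libraries, 44 with limma-voom, 219 with no filter and 13 to 198 with single libraries left out. With no filter the median change of all genes was -0.31, and with the other scalings -0.05.

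Depth limits the size of the change of Postn, which had 0 to 26 reads in KPYYF libraries. The 6 libraries against 3 left intervals over 2 log2 units wide for 8 of the 9 members, all but Fn1.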
